A study of Mus musculus with 47 samples.

Results

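The 10 transcripts described here encode hormones and marker proteins of enteroendocrine cells, the hormone-secreting cells scattered through the epithelium of the gut. They are Sst, Cck, Gip, Gcg, Pyy, Nts, Sct, Ghrl, Tph1 and Chga, chosen as a list by symbol, and each matched 1 of the 38087 genes of the deposited exon count table. RNA sequencing was done on whole duodenum, the part of the small intestine next to the stomach, and on whole ileum, the part next to the colon. All mice were male C57BL/6j, aged 15 to 16 weeks and fed ad libitum. Germ-free (GF) mice, raised without microorganisms, gave 12 duodenum and 11 ileum libraries, and conventionally raised (convR) mice, which carry a gut flora, gave 12 and 12. The libraries cover 6 zeitgeber times (ZT, hours after lights on) from ZT2 to ZT22 in steps of 4 h, with 2 libraries per group and time, and 1 in GF ileum at ZT2. Whether replicates are separate animals is not stated in the labels, and the p-values therefore refer to the spread between libraries, which may be technical. RNA came from the whole tissue, in which fewer cells of a type and less RNA per cell cannot be told apart.

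Enteroendocrine cells sense the contents of the gut and release peptides or serotonin from granules into the blood and onto nearby nerves. Different hormones prevail along the gut: gastric inhibitory polypeptide and cholecystokinin are known mainly from the proximal small intestine, while peptide YY, neurotensin and the glucagon-like peptides are known mainly from its distal part and the colon. Somatostatin (Sst) from D cells inhibits other endocrine cells, and chromogranin A (Chga) is a packing protein of the granules that many of these cells share.

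In GENCODE M21 on mm10, Gip (ENSMUSG00000014351) at chr11:96024545-96030831 and Chga (ENSMUSG00000021194) at chr12:102554969-102565028 lie on the plus strand. On the minus strand lie Sst (ENSMUSG00000004366) at chr16:23889573-23890958, Cck (ENSMUSG00000032532) at chr9:121489824-121495694, Gcg (ENSMUSG00000000394) at chr2:62474530-62483650 and Pyy (ENSMUSG00000017311) at chr11:102106676-102107832. Also on the minus strand are Nts (ENSMUSG00000019890) at chr10:102481756-102490486, Sct (ENSMUSG00000038580) at chr7:141278330-141279133, Ghrl (ENSMUSG00000064177) at chr6:113716119-113719880 and Tph1 (ENSMUSG00000040046) at chr7:46644641-46672537.

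Promoter sequence is shown for 5 of the transcripts to set the level differences beside the letters before the RefSeq start of each gene. The 100 bases before the RefSeq transcription start (GRCm38.p6) are printed 5' to 3' on the strand of the gene, and capitals mark the motifs named for each gene, found by exact search. In Sst (chr16:23890845-23890944, minus strand) the capitals mark TGACGTCA, the cAMP response element first described in the somatostatin gene. The printed stretch of Sst lies inside its GENCODE M21 locus, which starts at 23890958 on that strand. In Chga (chr12:102554841-102554940, plus strand) they mark TGACG, the first letters of that element. In Cck (chr9:121495695-121495794, minus strand) they mark CACGTG, an E-box of the type that clock proteins bind, CGTCA, which is TGACG read on the other strand, and CAGATG. In Gip (chr11:96024445-96024544, plus strand) they mark CAGCTG and in Gcg (chr2:62483654-62483753, minus strand) CAGATG, which like CAGATG in Cck are of the form CANNTG that factors such as Neurod1 bind. The capitals TTTATA and TATAAA in Gcg are the TATA motif on each strand.
Sst: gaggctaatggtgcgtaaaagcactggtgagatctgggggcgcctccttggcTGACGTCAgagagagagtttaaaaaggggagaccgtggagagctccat
Chga: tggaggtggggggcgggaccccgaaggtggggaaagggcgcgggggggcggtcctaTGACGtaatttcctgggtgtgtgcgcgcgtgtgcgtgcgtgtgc
Cck: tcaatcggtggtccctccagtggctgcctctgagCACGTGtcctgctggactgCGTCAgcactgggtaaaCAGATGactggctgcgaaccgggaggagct
Gip: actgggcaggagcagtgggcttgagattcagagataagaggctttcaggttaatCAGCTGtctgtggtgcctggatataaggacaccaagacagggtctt
Gcg: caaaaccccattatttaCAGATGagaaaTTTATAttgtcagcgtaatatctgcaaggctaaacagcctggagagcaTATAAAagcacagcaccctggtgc

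All 10 transcripts matched RefSeq promoter windows, 15 windows in all, each holding 250 bases before and 50 after the start. Over both strands, TGACGTCA was found in 1.79% of all 32851 windows, and among the 10 transcripts only in Sst, with its first base at -48, where -1 is the base before the start. TGACG, which is contained in TGACGTCA, was found in 20.8% of all windows and in those of Cck, Chga, Nts, Sst and Tph1. CACGTG, which is 1 form of CANNTG, was found in 7.15% of all windows and only in Cck among the 10, at -66. TATAAA was found in 13.6% of all windows and in Chga, Gcg and Sct. CANNTG was found in 72.3% of all windows and in 14 of the 15, so its presence does not set these genes apart. A match is a match of letters in this window and was not tested as a binding site.

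Total counts ran from 22.5 to 41.9 M (megacounts) per library, with a median of 31.9 M. Over 23 pairs of libraries of the same group and time, the chi-square per degree of freedom was 18.4 to 159, above counting noise in each pair. The tissue labels held against regional markers: Pdx1, the duodenal and pancreatic transcription factor, was 9.73 to 114 CPM (counts per megacount of the library total) in duodenum and at most 0.208 CPM in ileum. Fabp6, the ileal bile acid-binding protein, was 206 to 4484 CPM in ileum and at most 2.41 CPM in duodenum. All 6 tested of 7 duodenum markers were lower in ileum in GF and convR mice, where 66.5% and 49.6% of all genes passed. Of the ileum markers, 7 of 8 tested in GF and 7 of 7 in convR mice were higher in ileum. Hoxb13 and Hoxa9 of that list went the other way at low level, with medians of 0.145 and 0.389 CPM in convR duodenum and 0.0527 and 0 CPM in convR ileum. By markers, 10 duodenum libraries stood apart, 3 of GF and 7 of convR mice. In 8 of them pancreas acinar genes, counted without Zg16 and Cela1, averaged 37 to 630 CPM, against at most 5.6 CPM elsewhere. In the other two, GF ZT22 replicate 2 and convR ZT14 replicate 1, stomach and Brunner gland genes averaged 386 and 1342 CPM. In 2 ileum libraries, GF ZT22 replicate 2 and convR ZT6 replicate 2, Fabp6 was below 1000 CPM. Results below are also given without these 12 libraries where that changes a call.

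Sst and Gcg are also made by pancreatic islets, so islet markers were read beside them. All 10 islet markers were detected in GF duodenum, with a summed level of 458 to 815 CPM, and 9 of 10 in convR duodenum, with 339 to 768 CPM. Nearly all of that is Slc2a2, a glucose transporter that enterocytes also make. Without Slc2a2 the sum was 1.38 to 26.9 CPM in GF duodenum and 0.699 to 2.68 CPM in convR duodenum, with medians of 2.94 and 1.22 CPM. Only 3 of the 10 islet markers were high enough to test in duodenum, Iapp, Ucn3 and Slc2a2. All 3 were higher in GF, where 22.5% of all genes were. Their part in the Sst and Gcg results was not tested. Ins2, which encodes insulin, was at 0 in 9 of 12 GF and 5 of 12 convR duodenum libraries and reached 13.6 CPM in GF ZT22 replicate 1. That library had 35.2 CPM of Sst and 4.44 CPM of Gcg, both within the range of the other GF duodenum libraries.

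Levels per transcript length were compared as TPM, which divides counts by the deposited exon length and scales each library to the same total. In GF duodenum Gip, which encodes the incretin of the upper gut, had the highest mean at 122 ± 32.3 TPM (SD, n = 12), followed by Sst with 77.8 ± 18.9 TPM and Sct, the secretin gene, with 52.1 ± 31 TPM. Cck, Chga and Ghrl followed with 45.9, 39.6 and 36.6 TPM in GF duodenum. In convR duodenum the order was Gip with 84.9 ± 17.1 TPM, Cck with 53 ± 14.3 TPM, Sct with 38.9 ± 15.1 TPM and Sst with 34.6 ± 8.31 TPM (SD, n = 12). Sst thus followed Gip in GF duodenum and came after Cck and Sct as well in convR duodenum. The ranges of neighbours in either order overlapped, except below Ghrl, where a gap separated the upper 6 from Tph1, Gcg, Nts and Pyy in both groups. In ileum the order was the same in both groups. Nts came first with 72.7 ± 14.5 TPM in GF ileum (n = 11) and 91.4 ± 20.7 TPM in convR ileum (n = 12), then Sct, Pyy, Gcg, Sst, Chga, Gip, Cck, Ghrl and Tph1. Tph1 averaged 1.8 ± 0.283 TPM in GF ileum and 1.97 ± 0.708 TPM in convR ileum, and the ranges of all neighbours overlapped.

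**Figure D1:**
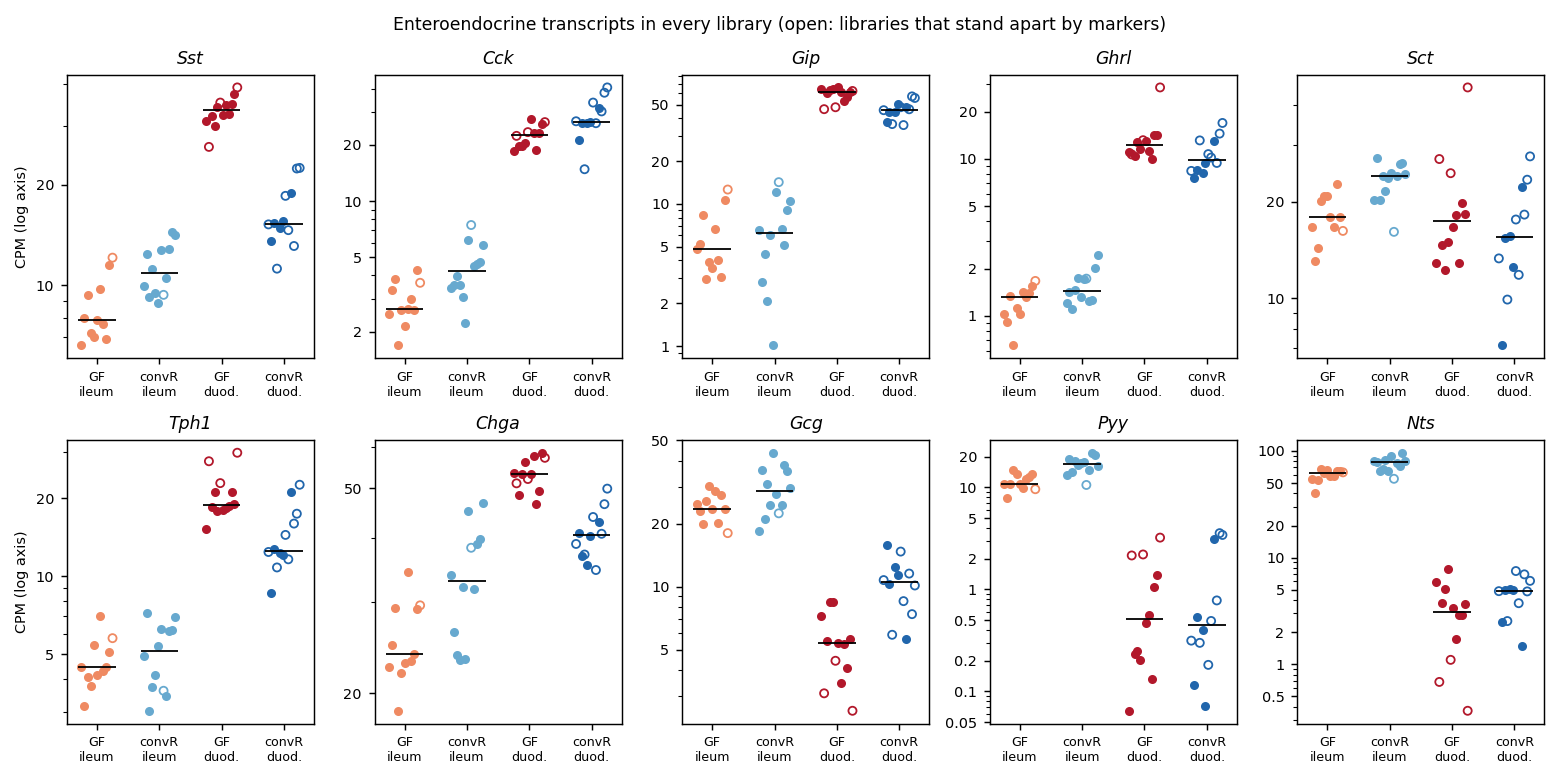
CPM (log axis) of the 10 transcripts in every library, by group, with ileum left of duodenum and GF left of convR in each tissue. Points are libraries, bars are group medians and open points are the 12 libraries that stood apart by markers. In duodenum the GF points of Sst lie above all convR points, and Nts and Pyy are higher in ileum than in duodenum in every library.

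The first comparison asks how these transcripts in duodenum differ between GF and convR mice. Of the 10, 5 were higher in GF (Sst, Tph1, Chga, Gip and Ghrl), 1 was lower (Gcg) and 4 did not pass at an adjusted p of 0.05 (Cck, Sct, Pyy and Nts). Over all 17986 genes tested 46.3% passed, 22.5% higher and 23.8% lower, so a passing call is common in this comparison. The median log2 fold change was 0.38 over the 10 transcripts and -0.01 over all genes. Scaled by library size alone, 2143 genes were higher and 6618 lower, against 4041 and 4287 with the scaling used, and the median over all genes was -0.14.

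Sst had the largest difference of the 10 in duodenum. Its level in GF duodenum was 25.9 CPM in the lowest library, 33.4 CPM at the median and 39 CPM in the highest. In convR duodenum the lowest, median and highest were 11.2, 15.3 and 22.4 CPM. Every GF library lay above every convR library, and no other transcript of the 10 had separate groups. Groups did not overlap for 4.02% of all genes tested, 0.767% higher and 3.25% lower in GF. The fold change was 2.24 (log2 1.16 ± 0.093, SE, adjusted p = 4.94e-09), and the GF mean was higher at 6 of 6 times. Without the libraries that stood apart it was 1.30 on the log2 scale (adjusted p = 9.54e-05).

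Tph1 encodes the rate-limiting enzyme of serotonin synthesis in enterochromaffin cells. It had 15.3, 18.9 and 29.9 CPM in GF duodenum (lowest, median, highest), against 8.59, 12.5 and 22.5 CPM in convR duodenum. The groups overlapped, and the GF mean was higher at 6 of 6 times, with a fold change on the log2 scale of 0.65 ± 0.15 (SE, adjusted p = 0.00126). The 3 GF libraries that stood apart held the highest values, 22.9 to 29.9 CPM. Without the 10 duodenum libraries that stood apart, the log2 fold change was 0.66 (adjusted p = 0.0311).

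Chga, the granule protein, had 46.5, 53.2 and 58.5 CPM in GF duodenum, against 34.7, 40.6 and 49.9 CPM in convR duodenum. The highest convR libraries reached into the GF range. The log2 fold change was 0.51 ± 0.062 (SE, adjusted p = 1.19e-06) with a higher GF mean at 6 of 6 times. Gip had 46.4, 61.7 and 66 CPM in GF duodenum, against 35.9, 46 and 57.1 CPM in convR duodenum. The lowest 2 GF values, 46.4 and 47.9 CPM, were those of ZT6 replicate 1 and ZT22 replicate 1, which carry the most acinar RNA. The log2 fold change of Gip was 0.50 ± 0.079 (SE, adjusted p = 2.98e-05), also at 6 of 6 times.

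Ghrl encodes ghrelin, the appetite hormone best known from the stomach. It had 9.98, 12.2 and 28.6 CPM in GF duodenum, against 7.51, 9.81 and 17 CPM in convR duodenum, and the groups overlapped. The highest value belonged to GF ZT22 replicate 2, whose stomach and Brunner gland markers averaged 386 CPM. Of that list Tff2, Gkn3 and Muc6 reached 3106, 1035 and 847 CPM in GF duodenum. Gkn1, Gkn2, Tff1 and Muc5ac were at most 1.86 CPM in any GF duodenum library. The part of stomach or Brunner gland tissue in the highest Ghrl value was not tested. The log2 fold change was 0.40 ± 0.13 (SE, adjusted p = 0.0182), and without the libraries that stood apart it was 0.47 (adjusted p = 0.0683), no longer passing. It also missed the threshold with scaling by library size alone (log2 0.28, adjusted p = 0.0909). Ghrl shares 169 exon bases with Gm44033 and 3 with Gm26982 on the opposite strand in GENCODE M21. Since the strand setting of the counting is not given in the sources used here, its counts may include reads of those genes. The other 9 transcripts share exon bases with no annotated gene.

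Gcg encodes proglucagon, the precursor of the glucagon-like peptides in L cells. It had 2.56, 5.37 and 8.47 CPM in GF duodenum, against 5.63, 10.5 and 15.8 CPM in convR duodenum. The groups overlapped, and the GF mean was lower at 6 of 6 times. Its log2 fold change was -0.87 ± 0.20 (SE, adjusted p = 0.00171). Without the libraries that stood apart it was -0.83, similar in size, and no longer passed (adjusted p = 0.0713).

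The 4 others in duodenum did not pass. Cck had 18.6, 22.7 and 27.5 CPM in GF duodenum and 14.8, 26.6 and 40.6 CPM in convR duodenum, and its log2 fold change was -0.22 (95% interval -0.49 to 0.05, adjusted p = 0.175). It passed when convR ZT14 replicate 1, the library with the highest stomach and Brunner gland markers, was left out (log2 -0.29, adjusted p = 0.0263). With scaling by library size alone it also passed (log2 -0.34, adjusted p = 0.0159). Sct, whose hormone releases bicarbonate from the pancreas, had 12.2, 17.4 and 45.4 CPM in GF duodenum and 7.13, 15.5 and 27.7 CPM in convR duodenum, with an interval of -0.11 to 0.82. Nts, the neurotensin gene, had 0.366, 3.11 and 7.74 CPM in GF duodenum and 1.48, 4.89 and 7.48 CPM in convR duodenum (interval -1.31 to 0.17). Pyy had 0.0645, 0.512 and 3.22 CPM in GF duodenum and 0.0715, 0.444 and 3.56 CPM in convR duodenum. It had 2 to 127 counts per library, and the interval of its log2 fold change was wide, from -1.45 to 1.29.

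**Figure D2:**
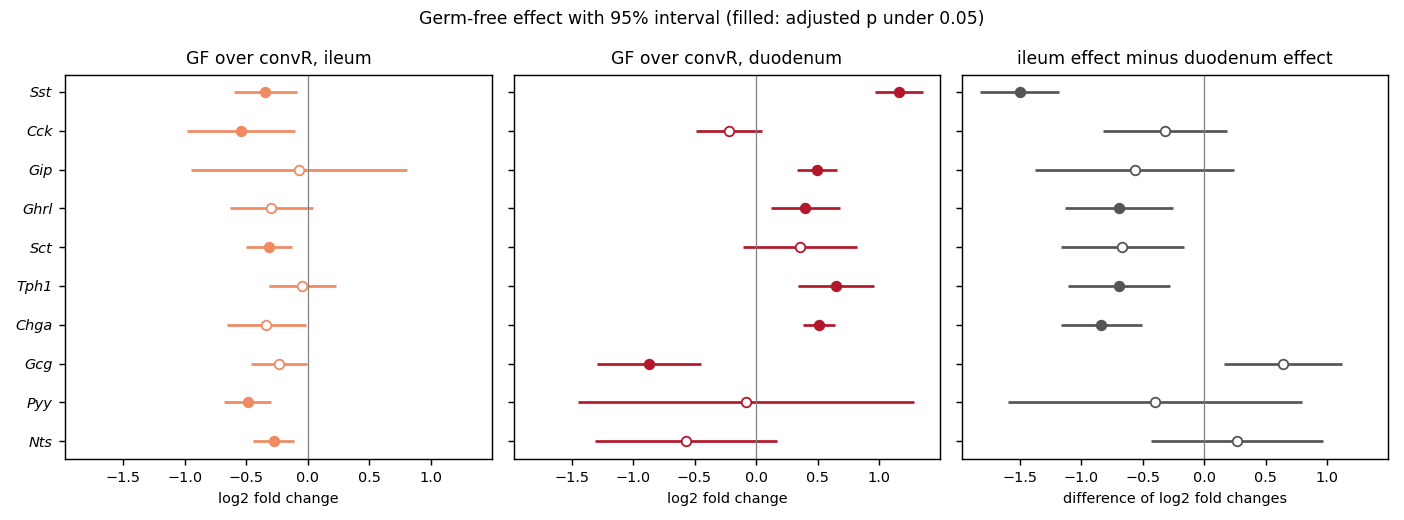
Log2 fold change of GF over convR in ileum (left) and in duodenum (middle), and the ileum effect minus the duodenum effect (right), for the 10 transcripts. Points are edgeR estimates, lines 95% intervals, and filled points have an adjusted p under 0.05. In ileum all 5 filled points lie left of 0. In duodenum 5 filled points lie right of 0 and 1, Gcg, lies left of it.

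In ileum the same comparison gave 5 lower transcripts in GF (Pyy, Nts, Sct, Sst and Cck), 0 higher and 5 that did not pass (Gcg, Chga, Ghrl, Tph1 and Gip). Over all 18082 genes tested 42% passed, 19.5% higher and 22.4% lower. The estimates of all 10 were below 0, with a median of -0.31, against 0.01 over all genes. Scaled by library size alone, 2316 genes were higher and 4866 lower, against 3535 and 4052 with the scaling used. GF and convR ranges overlapped for all 10 transcripts, where 5.78% of genes had separate ranges, 0.935% higher and 4.84% lower in GF.

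Pyy encodes peptide YY, the satiety peptide of distal L cells. It had 7.94, 10.9 and 14.8 CPM in GF ileum (lowest, median, highest), against 10.6, 17 and 21.9 CPM in convR ileum. The overlap was partial, and the GF mean was lower at 6 of 6 times. The log2 fold change was -0.49 ± 0.093 (SE, adjusted p = 0.000259).

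Sct and Nts were lower too, by less. Sct had 13, 17.9 and 22.8 CPM in GF ileum, against 16.1, 24.1 and 27.4 CPM in convR ileum, a fold change on the log2 scale of -0.32 ± 0.089 (SE, adjusted p = 0.00696). The lowest convR value was that of ZT6 replicate 2, a library with little Fabp6. Nts had 40.8, 61.7 and 67.3 CPM in GF ileum, against 54.8, 78 and 96.2 CPM in convR ileum. Its log2 fold change was -0.28 ± 0.079 (SE, adjusted p = 0.00755), and both transcripts had a lower GF mean at 6 of 6 times.

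Sst and Cck passed by a small margin. Sst had 6.61, 7.9 and 12.1 CPM in GF ileum, against 8.85, 10.9 and 14.4 CPM in convR ileum, with a fold change on the log2 scale of -0.35 ± 0.12 (SE, adjusted p = 0.0297). Cck had 1.69, 2.64 and 4.26 CPM in GF ileum, against 2.22, 4.21 and 7.44 CPM in convR ileum, with -0.54 ± 0.21 (SE, adjusted p = 0.0435). Both groups overlapped widely in either transcript. Leaving out 1 library took the call from Sst in 9 of 23 cases (highest adjusted p = 0.0634) and from Cck in 14 of 23 (highest adjusted p = 0.102), so both calls depended on single libraries. Without the 2 ileum libraries that stood apart, Sst had -0.44 (adjusted p = 0.00745) and Cck -0.46 (adjusted p = 0.0718).

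The rest had intervals that nearly reached or crossed 0. Chga had 18.5, 23.8 and 34.3 CPM in GF ileum and 23.2, 33.1 and 46.7 CPM in convR ileum, with a log2 fold change of -0.34 (interval -0.65 to -0.02, adjusted p = 0.0845). It passed with scaling by library size alone (-0.39, adjusted p = 0.0327) and with no ZT term (-0.35, adjusted p = 0.042). Gcg had 18, 23.5 and 30.3 CPM in GF ileum and 18.5, 28.7 and 43.6 CPM in convR ileum, with -0.23 (adjusted p = 0.0936). For Ghrl, Tph1 and Gip the log2 fold changes were -0.30, -0.05 and -0.07. Gip varied most between libraries, with 2.98 to 12.6 CPM in GF ileum and 1.01 to 14.2 CPM in convR ileum, and its interval of -0.95 to 0.81 leaves changes of either sign possible.

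Whether the GF effect differs between the tissues was tested as an interaction over all 47 libraries, as the ileum effect minus the duodenum effect. It was lower for 4 of the 10 transcripts and higher for 0, where 12.3% of all 19000 genes passed, 4.58% higher and 7.69% lower. Scaled by library size alone, 1214 genes were higher and 968 lower, against 870 and 1461 with the scaling used. The difference was -1.50 ± 0.16 for Sst (SE, adjusted p = 1.82e-08), which was higher in GF duodenum and lower in GF ileum. For Chga it was -0.84 ± 0.16 (SE, adjusted p = 0.000448), for Ghrl -0.69 ± 0.22 (adjusted p = 0.0283) and for Tph1 -0.69 ± 0.21 (adjusted p = 0.022). Without the libraries that stood apart, Sst (-1.72, adjusted p = 9e-06) and Chga (-0.94, adjusted p = 0.0299) passed, while Ghrl (-0.77, adjusted p = 0.0869) and Tph1 (-0.77, adjusted p = 0.0527) did not. Gcg had a difference of 0.64 (interval 0.16 to 1.12, adjusted p = 0.0738) and Sct one of -0.67 (interval -1.17 to -0.17, adjusted p = 0.072). Sct passed with the replicate number as a block (-0.71, adjusted p = 0.0432), and with DESeq2 both Sct (-0.66, adjusted p = 0.0405) and Gcg (0.65, adjusted p = 0.0387) passed. Ghrl did not pass without convR duodenum ZT6 replicate 1 (adjusted p = 0.0513) or convR ileum ZT22 replicate 2 (adjusted p = 0.0594). The intervals of Cck, Gip, Pyy and Nts included 0.

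The comparison of ileum with duodenum shows how the transcripts are laid out along the small intestine. In GF mice 3 were higher in ileum (Nts, Pyy and Gcg), 6 were lower (Ghrl, Gip, Cck, Tph1, Sst and Chga) and Sct did not pass, where 66.5% of 17909 genes passed, 33.2% higher and 33.4% lower. Scaled by library size alone, 7944 genes were higher and 4601 lower in GF, against 5940 and 5978 with the scaling used, and the median over all genes was 0.13. In convR mice 4 were higher (Pyy, Nts, Gcg and Sct) and the same 6 were lower, where 49.6% of 18164 genes passed, 24.9% higher and 24.8% lower. The ranges of the tissues did not overlap for 9 of the 10 in GF, where 20.1% of genes had separate ranges (11.6% higher, 8.49% lower in ileum), and for 7 of the 10 in convR, where 7.61% did (3.39% higher, 4.22% lower). Sst and Chga made that difference: in GF mice the ranges of both were separate and in convR mice both overlapped.

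Among the distal hormones Nts had the widest step in GF mice. It had 40.8, 61.7 and 67.3 CPM in GF ileum (lowest, median, highest), against 0.366, 3.11 and 7.74 CPM in GF duodenum, 19.1-fold higher (log2 4.25 ± 0.31, SE, adjusted p = 1.57e-09). In convR mice Nts was 16-fold higher in ileum (log2 4.00 ± 0.20). Pyy was 12.1-fold higher in ileum in GF (log2 3.59 ± 0.38, adjusted p = 1.96e-07) and 16.3-fold in convR (log2 4.03 ± 0.49, adjusted p = 1.41e-06). Gcg had 18 to 30.3 CPM in GF ileum against 2.56 to 8.47 CPM in GF duodenum, a log2 difference of 2.11 ± 0.17 (adjusted p = 2.91e-09), and 1.44 ± 0.17 in convR mice (adjusted p = 4.29e-07). Sct lay between the classes, with -0.20 ± 0.16 in GF (adjusted p = 0.275) and 0.49 ± 0.17 in convR (adjusted p = 0.0253), which did not pass without the filter on low counts (0.48, adjusted p = 0.0606).

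The remaining transcripts ran the other way. Ghrl was 11.8-fold lower in ileum in GF (log2 -3.56 ± 0.15, adjusted p = 3.46e-14) and 7.22-fold lower in convR (log2 -2.85 ± 0.16). Gip was 10.9-fold lower in GF (log2 -3.44 ± 0.25) and 7.2-fold lower in convR (log2 -2.85 ± 0.33), and Cck 8.34-fold lower in GF and 6.63-fold lower in convR. Tph1 had log2 differences of -2.28 ± 0.093 in GF and -1.55 ± 0.19 in convR. For Sst the step was -2.09 ± 0.10 in GF, with 6.61 to 12.1 CPM in ileum against 25.9 to 39 CPM in duodenum, and -0.57 ± 0.12 in convR, with 8.85 to 14.4 CPM in ileum against 11.2 to 22.4 CPM in duodenum. Chga had -1.19 ± 0.083 in GF and -0.33 ± 0.13 in convR (adjusted p = 0.0383). The convR call of Chga was lost without 1 library in 11 of 24 cases (highest adjusted p = 0.0752) and without the libraries that stood apart (log2 -0.38, adjusted p = 0.198).

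**Figure D3:**
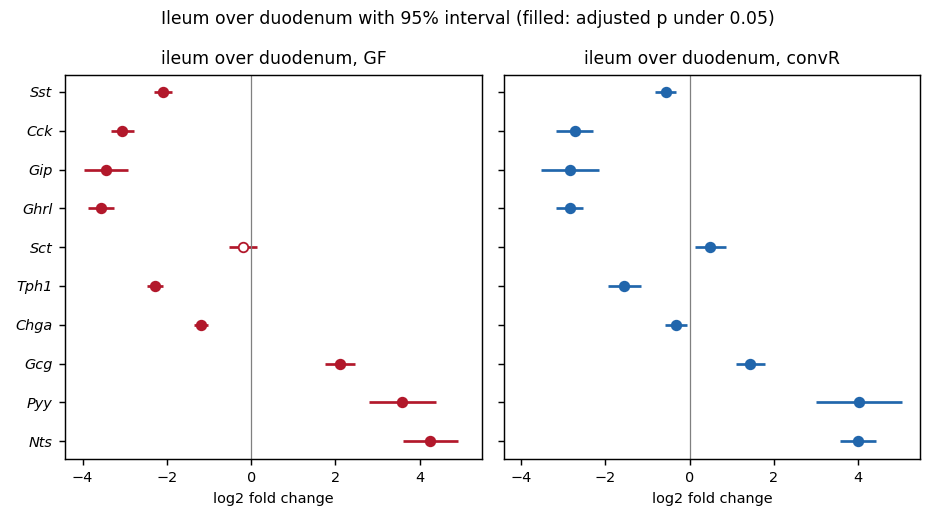
Log2 fold change of ileum over duodenum in GF (left) and convR mice (right) for the 10 transcripts, with edgeR 95% intervals; filled points have an adjusted p under 0.05. Gcg, Pyy and Nts lie right of 0 in both panels, and Sst lies at -2.09 in GF mice and -0.57 in convR mice.

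Time of day was examined as a cosine of 24 h fitted in each group. None of the 10 transcripts had a rhythm that passed in any of the 4 groups with edgeR, the tool used for rhythms, where 2.68% of genes passed in GF duodenum, 0.0301% in convR duodenum, 1.39% in GF ileum and 0.133% in convR ileum. Pyy was too low to be tested in either duodenum group. At an unadjusted p of 0.05, 1 transcript passed in GF duodenum and 0 in the other groups. It was Ghrl, with a fitted peak at ZT20.3, a peak-to-trough ratio of 1.67 and an unadjusted p = 0.0365 (adjusted p = 0.26). Its highest library, GF ZT22 replicate 2, is the one whose stomach and Brunner gland markers averaged 386 CPM.

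Fitted peak-to-trough ratios were modest. They ran from 1.07 to 1.91 in GF duodenum, 1.19 to 1.89 in convR duodenum, 1.04 to 1.61 in GF ileum and 1.16 to 1.93 in convR ileum. Pyy in ileum came nearest to the threshold there, with a ratio of 1.39 and a peak at ZT18.2 in GF (unadjusted p = 0.0531) and a ratio of 1.37 and a peak at ZT17.2 in convR (unadjusted p = 0.0647). The difference of rhythm between GF and convR passed for 0 of the 10 transcripts in either tissue. It also passed for 0 of all genes (0% called), with 4.11% of genes in duodenum and 3.36% in ileum at an unadjusted p of 0.05, and 0 of the 10 transcripts at that level. A p that misses the threshold does not show that a rhythm is absent.

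**Figure D4:**
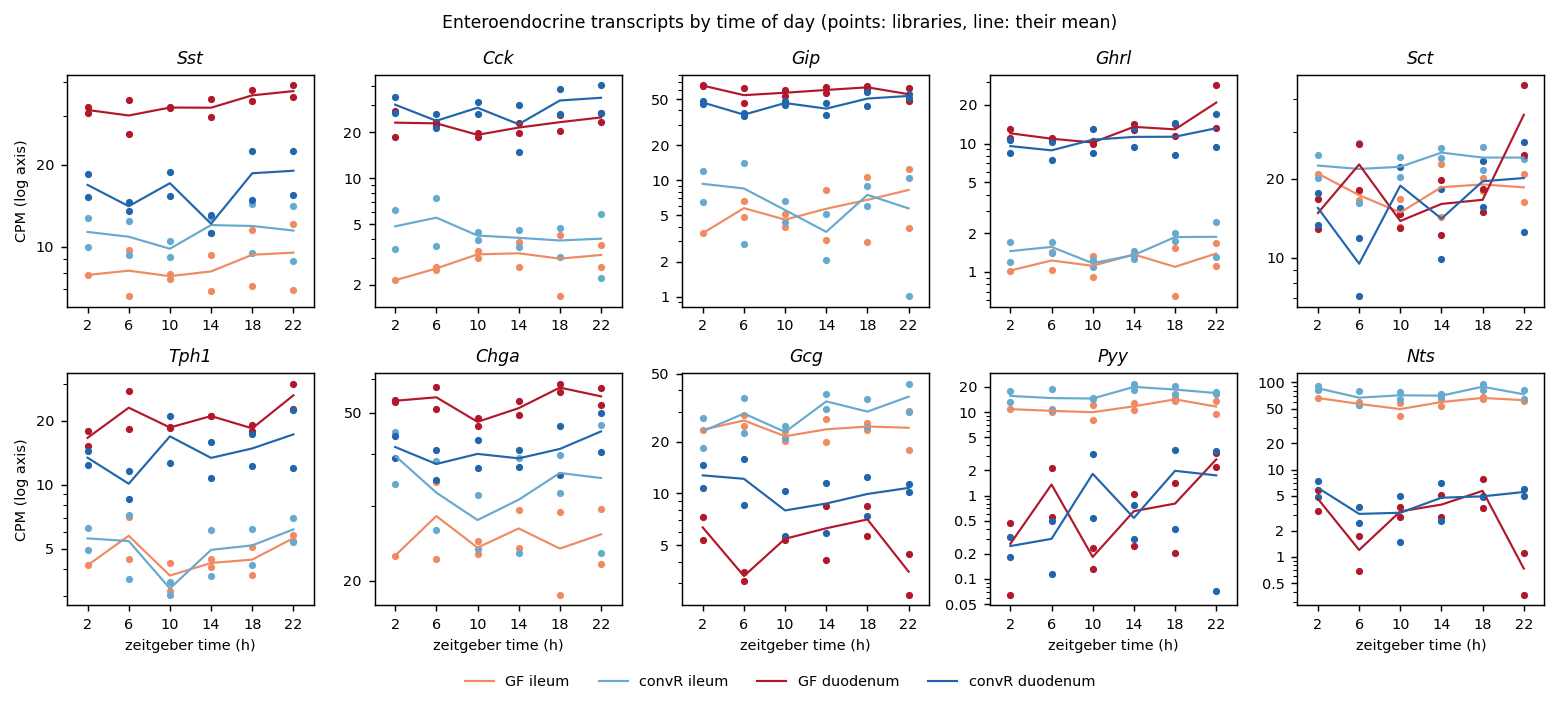
CPM (log axis) of the 10 transcripts by zeitgeber time in hours; points are libraries, lines their means, in GF ileum, convR ileum, GF duodenum and convR duodenum. The GF duodenum line of Sst stays above the convR duodenum line at all 6 times, and no transcript had a 24 h rhythm that passed.

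Libraries of a tissue also varied among themselves, and the transcripts did so in blocks. Correlations are of log2 CPM after removal of the group means, and the points share libraries, depth and scaling to the total. Differences between times and between replicate numbers stay in these values. In duodenum (24 libraries) Sct, Tph1 and Pyy varied together, with Pearson r of 0.901 between Sct and Tph1, 0.866 between Pyy and Sct and 0.856 between Pyy and Tph1. Gcg varied with Nts (r = 0.789) and against Pyy (r = -0.658). The 3 GF libraries that stood apart lay at one end. They had 24.5 to 45.4 CPM of Sct and 2.15 to 3.22 CPM of Pyy, the highest of GF duodenum, and 0.366 to 1.1 CPM of Nts, the lowest. In the 14 duodenum libraries that did not stand apart, the correlations were 0.789 for Sct with Tph1, 0.814 for Pyy with Sct, 0.698 for Gcg with Nts and -0.742 for Gcg with Pyy. Taken about the means of group and replicate number, over all 24, they were 0.885 for Sct with Tph1, 0.82 for Pyy with Sct, 0.808 for Gcg with Nts and -0.669 for Gcg with Pyy. Pdx1 moved with this block. It was 71.7 to 114 CPM in 6 duodenum libraries, whose Pyy was 2.15 to 3.56 CPM, and 9.73 to 68.2 CPM in the other 18, whose Pyy was at most 1.4 CPM. One of the 6, convR ZT10 replicate 2, did not stand apart by pancreas or stomach markers. Median Pdx1 was 52 CPM in GF and 27 CPM in convR duodenum, and its part in the duodenum results was not tested. In convR duodenum, replicate 2 lay above replicate 1 at 6 of 6 times for Sst, Cck, Sct and Tph1, and at 2 of 6 for Gcg. For Sst this held at 6 of 6 times in GF duodenum as well. Replicate 2 of convR duodenum stood apart at every time except ZT10, and replicate 1 at ZT2 and ZT14.

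In ileum (23 libraries) Cck, Gip and Chga varied together, with r of 0.847 for Cck with Gip, 0.843 for Gip with Chga and 0.729 for Cck with Chga. Chga also varied with Ghrl (0.688) and Sst (0.657). Pyy, Nts and Gcg varied with Sct, with r of 0.816, 0.72 and 0.647. Gip ran against Gcg (r = -0.511). The highest Gip values, 12.6 CPM in GF ZT22 replicate 2 and 14.2 CPM in convR ZT6 replicate 2, were in the 2 libraries with little Fabp6. Without those 2 libraries the correlations were 0.818 for Cck with Gip, 0.854 for Gip with Chga, 0.744 for Pyy with Sct and -0.409 for Gip with Gcg. In convR ileum, replicate 2 lay above replicate 1 at 6 of 6 times for Cck, Gip and Chga alike, and in GF ileum at 3 of 5 times for each. About the means of group and replicate number the correlations were 0.743 for Cck with Gip, 0.739 for Gip with Chga, 0.496 for Cck with Chga, 0.839 for Pyy with Sct and -0.703 for Gip with Gcg.

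**Figure D5:**
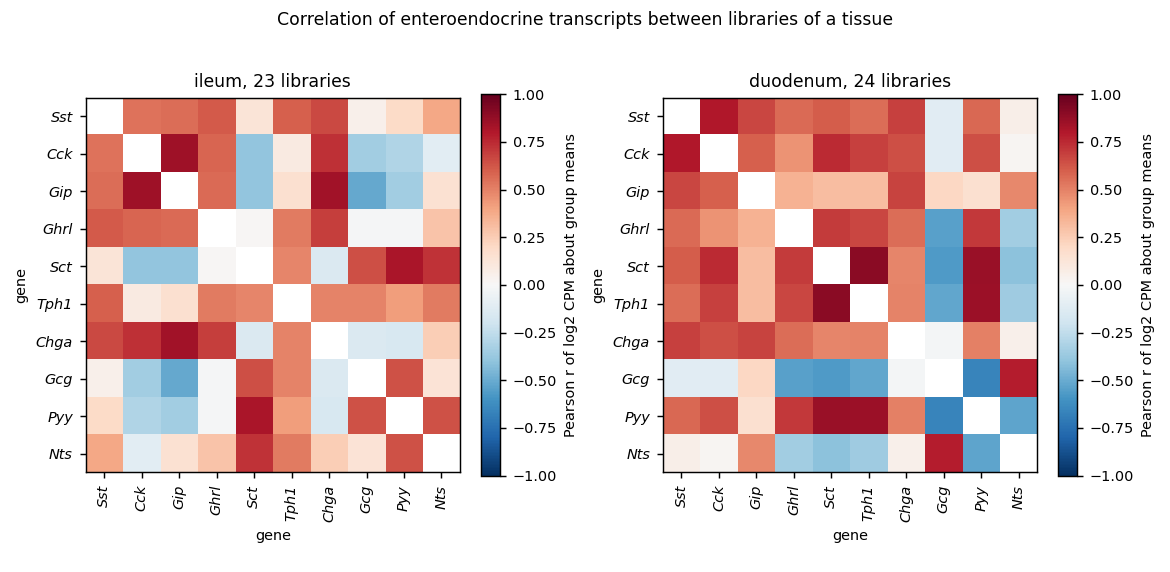
Pearson correlation of log2 CPM about the group means between each pair of the 10 transcripts, over 23 ileum libraries (left) and 24 duodenum libraries (right). The colour scale runs from -1 to 1. In duodenum Sct, Tph1 and Pyy form the strongest block, and in ileum Cck, Gip and Chga and, apart from them, Pyy and Sct.

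Across all 47 libraries and 13447 genes with a mean of at least 1 CPM, likeness of pattern was measured by the same correlation. Gip was most like Ugt2a3 (r = 0.939), Ms4a10 (0.927) and Adh6a (0.923), and Pyy like Ugt2b38 and Asb11 (both 0.89). Nts was most like Guca2a (0.869), the guanylin gene, and Cck like Dhrs1 (0.856). Chga was most like Aadac (0.818) and Gip (0.815). Tph1 was most like Chgb (0.75), a granule protein, and Reg4 (0.749), a secreted lectin of the gut epithelium. Sct was most like n-R5s36 (0.906), Clca3 (0.861) and Pyy (0.853). Gcg was most like Papss1 (0.734), Sst like Gstt1 (0.718) and Ghrl like Polr2l (0.709), the lowest of the 10 best matches.

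Other genes of these cells were read as lists. Of 29 tested genes of granules and prohormone processing, 13 were higher and 1 lower in GF duodenum (median log2 0.23), where 22.5% and 23.8% of all genes were. In GF ileum 5 of 29 were higher and 3 lower (median 0.03), where 19.5% and 22.4% of all genes were. Slc18a1, the transporter that loads serotonin into granules, had 21.8 CPM on average in GF duodenum and 10.8 CPM in convR duodenum. Its log2 fold change was 1.14 ± 0.082 (SE, adjusted p = 1.3e-09) in duodenum and 0.23 in ileum, and the tissue difference was -0.90 ± 0.11 (adjusted p = 4.06e-07). Scg5, a chaperone of a prohormone convertase, rose by 0.63 in duodenum, with a tissue difference of -0.58 (adjusted p = 0.00324). Of 30 genes of this list tested for the tissue difference, 6 were lower and 0 higher, where 7.69% and 4.58% of all genes were. In ileum Gch1, which makes the cofactor of serotonin synthesis, fell by 0.70, and Pam, which amidates peptide hormones, rose by 0.35.

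Of 27 transcription factors of the lineage tested, 7 were higher and 2 lower in GF duodenum, where 22.5% and 23.8% of all genes were. Of 24 tested, 5 were higher and 1 lower in GF ileum, where 19.5% and 22.4% of all genes were. Lmx1a, which acts in enterochromaffin cells of the mouse, rose by 0.75 ± 0.087 (SE, adjusted p = 5.83e-07) in duodenum, where Neurod1 rose by 0.54 and Insm1 by 0.59, both factors of endocrine differentiation. Neurog3, which starts the lineage, had 1.07 CPM in GF ileum and 0.826 CPM in convR ileum, and rose by 0.47 there (adjusted p = 0.012). Lmx1a alone of 27 had a tissue difference that passed (-0.49, adjusted p = 0.0486), where 12.3% of all genes passed.

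Of 13 other hormone and peptide genes tested in duodenum, 7 were higher and 3 lower in GF, where 22.5% and 23.8% of all genes were. Of 12 tested in ileum, 4 were higher and 4 lower, where 19.5% and 22.4% of all genes were. Iapp, which encodes amylin and is made in islets and in the gut, had 2.09 CPM in GF duodenum and 0.597 CPM in convR duodenum, a fold change on the log2 scale of 1.85 ± 0.20 (SE, adjusted p = 2.94e-07). Guca2b, the uroguanylin gene, rose by 1.02 in duodenum, and Guca2a, the guanylin gene, rose by 0.74 in ileum. Penk, which encodes enkephalins, fell by 0.65 in ileum. The tissue difference of Iapp was -2.09 ± 0.32 (adjusted p = 1.18e-05).

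Receptors and sensors were mixed. Of 13 hormone receptors tested in duodenum 4 were higher and 5 lower in GF, and of 16 in ileum 1 was higher and 4 lower. The shares over all genes were 22.5% higher and 23.8% lower in duodenum, and 19.5% and 22.4% in ileum. Glp2r, the receptor of glucagon-like peptide 2, was lower in both tissues: 8.08 CPM in GF and 15.3 CPM in convR duodenum (log2 -0.79 ± 0.063, adjusted p = 4.29e-09), and 5.5 CPM in GF and 12.3 CPM in convR ileum (log2 -1.10 ± 0.089, adjusted p = 5.1e-09). Glp1r, the receptor of glucagon-like peptide 1, had 0.135 CPM in GF ileum and 0.662 CPM in convR ileum. Its log2 fold change was -2.21 ± 0.24 (adjusted p = 2.49e-07), with a GF level near the floor of the counts. Sort1, which binds neurotensin and sorts many other proteins, fell by 0.48 in duodenum and by 0.23 in ileum. Sstr5, a somatostatin receptor, went the other way in duodenum, with 0.806 CPM in GF and 0.544 CPM in convR (log2 0.67, adjusted p = 0.00157). Of 20 nutrient sensors tested in duodenum 4 were higher and 3 lower, with Trpa1, an irritant channel of enterochromaffin cells, up by 0.48. Of 22 tested in ileum 1 was higher and 5 lower, with Hcar1, a lactate receptor, at -0.87, Ffar2, a receptor of short-chain fatty acids, at -0.51 and Piezo2, a mechanical channel, at -0.33.

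Genes listed for clearance of hormones and serotonin were higher more often than lower. The list also holds Mboat4 and Tph2, which do not clear them. Of 8 tested, 4 were higher and 1 lower in GF duodenum, where 22.5% and 23.8% of all genes were. In GF ileum 5 were higher and 0 lower (median log2 0.63), where 19.5% and 22.4% of all genes were. Maob, a monoamine oxidase, rose by 1.09 ± 0.11 in duodenum (SE, adjusted p = 1.42e-07), with 149 CPM in GF and 77.4 CPM in convR, and by 1.19 ± 0.21 in ileum (adjusted p = 0.000242). Maoa rose by 0.73 and Slc6a4, the serotonin uptake transporter, by 0.55 in ileum. The tissue difference passed for Slc6a4 (0.42, adjusted p = 0.0456) and Lyplal1 (0.50, adjusted p = 0.0114). The peptidases Mme and Ace rose by 0.78 and 1.18 in duodenum.

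Markers of other cells moved beside these genes, where 22.5% of all genes were higher and 23.8% lower in GF duodenum. In GF ileum 19.5% of all genes were higher and 22.4% lower. Enterocyte markers summed to 32290 to 46470 CPM in GF duodenum and 17120 to 39980 CPM in convR duodenum, and 5 of 8 were higher in GF. In ileum they summed to 24890 to 38750 CPM in GF and 17430 to 30430 CPM in convR, and 3 of 8 were higher and 1 lower. Enteric neuron markers, which share Snap25 with the granule list, summed to 24.3 to 34.7 CPM in GF duodenum and 26.4 to 58.3 CPM in convR duodenum, and 2 of 12 were higher and 1 lower. In ileum they summed to 47.2 to 66.6 CPM in GF and 50.3 to 73 CPM in convR and 1 of 12 was higher and 1 lower. Mast cell markers summed to 12.9 to 21.7 CPM in GF duodenum and 15.1 to 29.9 CPM in convR duodenum. Of 4 tested, 2 were lower, Mcpt1 and Mcpt2. Most of the sum was Kit, with a median of 12.9 CPM against 15.1 CPM for the sum in GF duodenum. In convR duodenum these medians were 15.6 and 18.7 CPM, so the sums mainly follow Kit. In ileum the mast cell markers summed to 30.7 to 175 CPM in GF and 36.2 to 56.4 CPM in convR, with Kit medians of 34.3 and 38.4 CPM. The highest sum was that of GF ZT6 replicate 2, which had 86.2 CPM of Mcpt1, a mast cell protease, and the highest Tph1 of GF ileum, 7.03 CPM. The part of these cells in the results was not tested.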

How the data were processed

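RNA sequencing measured transcripts in 47 libraries. Per the labels' protocols, libraries were made from 250 ng of total RNA with a stranded kit after ribosomal RNA depletion, with 12 PCR cycles, and read as paired ends of 100 bases. Per the submitters' processing notes, STAR 2.4.0i and the mm10 build were used. The deposited table gives, for each gene, exon counts not normalized by the authors and the exon length in bases. The sources used here name neither the counting program nor its annotation or strand option. Depth per library was 22.5 to 41.9 M counts, at which Pyy in duodenum had 2 to 127 counts per library.

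From these counts, CPM were computed on library totals and TPM from the exon lengths. Comparisons between groups used edgeR 4.0.16 (quasi-likelihood test, robust dispersion, TMM scaling, minimum count of 10, ZT as a factor), with Benjamini-Hochberg adjustment over all genes of a fit and a threshold of 0.05. All tests are two-sided. For rhythms, cosine and sine terms of a 24 h period replaced the ZT factor. The correlations use 0.5 CPM as a pseudocount. Scripts were tested on simulated data. Groups come from the sample titles. Genes were named by rule: the 10 transcripts throughout, of each other list up to 3 genes with the smallest p per tissue and up to 2 for the tissue difference, and the 3 most similar genes of each transcript, passing over predicted genes. The transcripts and lists were chosen with earlier results of these data known. Symbols and loci were read from GENCODE M21, which matched 36308 of 38087 genes.

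Whether equal replicate numbers pair libraries was checked by correlating deviations between libraries of the same time. Between ileum and duodenum of convR mice the correlation was 0.245 to 0.604, above 0.1 at 6 of 6 times. It was -0.0546 to 0.152 between ileum and duodenum of GF mice, -0.0635 to 0.28 between GF and convR duodenum and -0.0518 to 0.368 between GF and convR ileum. GF and convR libraries come from different mice, and their highest values reached into the range of the convR tissues. The check therefore cannot decide whether the numbers pair libraries. Alternatives were other scalings, no filter on low counts, DESeq2 1.42.0, a replicate block, no ZT term, leaving out each library, and, chosen after seeing the data, leaving out 12 libraries that stood apart by pancreas, stomach or Fabp6 markers and correlations about the means of group and replicate number.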

Additional observations from a re-analysis of the deposited data

Results flagged for a closer look

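The effect of GF status differed between ileum and duodenum for 4 of the 10 transcripts, by the test of the difference itself (ileum effect minus duodenum effect). Over all 19000 genes 12.3% passed, 4.58% higher and 7.69% lower. The difference was -1.50 for Sst, -0.84 for Chga, -0.69 for Ghrl and -0.69 for Tph1 on the log2 scale. Sst was 2.24-fold higher in GF duodenum than in convR duodenum and 1.27-fold lower in GF ileum than in convR ileum. Chga was 1.42-fold higher in GF duodenum, and in GF ileum its log2 fold change of -0.34 did not pass (adjusted p = 0.0845). Without the 12 libraries that stood apart by markers, the differences of Ghrl (-0.77, adjusted p = 0.0869) and Tph1 (-0.77, adjusted p = 0.0527) had the same sign and did not pass. Ghrl also did not pass without convR duodenum ZT6 replicate 1 (adjusted p = 0.0513) or convR ileum ZT22 replicate 2 (adjusted p = 0.0594).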

How the results depend on the processing

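No direction of a passing difference was reversed by an alternative. Under the alternatives, 1687 values of the 10 transcripts kept their side of the threshold, 50 lost a call and 23 gained one. The number of the 10 that passed in GF against convR ileum was 5, and 3 without the filter on low counts. Without 1 library at a time it was 3 to 6. Over all genes 7587 of 18082 passed in that comparison, and 7353 of 31637 without the filter. In the tissue difference 4 of the 10 passed, 2 without the filter and 2 without the libraries that stood apart. Without 1 library at a time 3 to 6 passed. Over all genes 2331 of 19000 passed, 1701 of 33627 without the filter and 1476 of 19433 without the libraries that stood apart. In GF against convR duodenum 6 of the 10 passed, 5 without the filter and 4 without the libraries that stood apart. Without 1 library 6 to 7 passed. Over all genes 8328 of 17986 passed, 7926 of 31791 without the filter and 4650 of 18354 without the libraries that stood apart. Between ileum and duodenum 9 of the 10 passed in GF, where 11918 of 17909 genes did. In convR 10 of the 10 passed, and 8 without the filter (Sct and Chga lost their calls, Chga at -0.33, adjusted p = 0.0782). Without the libraries that stood apart 9 passed, and without 1 library 9 to 10. Over all genes 9015 of 18164 passed in convR, 9166 of 31759 without the filter and 6317 of 18853 without the libraries that stood apart.

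With replicate number as a block, 6 of the 10 passed in duodenum, 7 in ileum and 5 in the tissue difference. Over all genes 8514 of 17986, 7908 of 18082 and 2489 of 19000 passed. Between the tissues 9 of the 10 passed in GF, where 11658 of 17909 genes did, and 10 in convR, where 9932 of 18164 genes did. No call changed between the tissues. Elsewhere the block added Gcg (-0.26, adjusted p = 0.0226) and Chga (-0.32, adjusted p = 0.0365) in ileum and Sct (-0.71, adjusted p = 0.0432) in the tissue difference. DESeq2 added Gcg (0.65, adjusted p = 0.0387) and Sct (-0.66, adjusted p = 0.0405) in the tissue difference. Rhythm results gave 0 passing transcripts under every alternative run, the block included.

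Single libraries changed calls as follows. In duodenum Cck (-0.29) gained a call without convR ZT14 replicate 1. In ileum Sst lost its call (-0.30 to -0.32) without convR ZT6 replicate 1, convR replicate 2 at ZT14, ZT18 or ZT22, GF replicate 1 at ZT6, ZT18 or ZT22, or GF replicate 2 at ZT2 or ZT14. Cck lost it (-0.42 to -0.55) without convR replicate 2 at ZT2, ZT6, ZT10, ZT14, ZT18 or ZT22, GF replicate 1 at ZT6, ZT10, ZT18 or ZT22, or GF replicate 2 at ZT2, ZT6, ZT10 or ZT14. Chga (-0.39) gained one without convR replicate 1 at ZT14 or ZT22 or GF replicate 2 at ZT6, and Gcg (-0.27) without convR ZT2 replicate 1 or convR ZT6 replicate 2. In the tissue difference Ghrl (-0.62) lost its call without convR duodenum ZT6 replicate 1 or convR ileum ZT22 replicate 2, Gcg (0.69 to 0.77) gained one without convR duodenum ZT14 replicate 1, convR duodenum replicate 2 at ZT10 or ZT18, GF duodenum replicate 1 at ZT14 or ZT18, GF ileum ZT14 replicate 1 or GF ileum ZT22 replicate 2, and Sct (-0.74) without convR duodenum replicate 2 at ZT10 or ZT14. In convR mice Chga (-0.26 to -0.33) lost its ileum call without any replicate 1 of ileum, or duodenum replicate 2 at ZT2, ZT10, ZT14, ZT18 or ZT22. The cause was not tested.

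The planned rule for pancreas and stomach RNA took all 47 libraries, where Zg16, one of its markers, averaged 1364 CPM in GF and 1563 CPM in convR duodenum, and gave no value; the markers used in its place were chosen after seeing the data. Rhythm in convR duodenum was not run without the libraries that stood apart. Counts were low for Pyy in duodenum (2 to 127 per library) and Ghrl in ileum (23 to 96 per library).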
